A study of Mus musculus with 37 samples.

Results

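Solute carrier (SLC) genes encode membrane proteins that move amino acids, sugars, lactate, metals, ions, nucleotides, vitamins and amines across the plasma membrane and the membranes of organelles. They were taken here as every gene whose symbol starts with Slc and a family number, with 2 names left out. The table held 111 such genes, with 256 transcripts, among 6509 named genes. All 111 reached a value of 10 or more in at least 1 group, and the lowest of their highest values was 32, for Slc35f2. Of the 111, Slc7a6os and Slc9a3r2 carry the name but are no transporters. RNA had been sequenced from 5 kinds of mouse myeloid cell of strain C57Bl6cJ. These were thioglycollate-elicited, adherent peritoneal macrophages, neutrophils from pooled mice, held overnight in GM-CSF, mast cells and eosinophils that had been grown out of bone marrow, and magnetically enriched splenic dendritic cells (sDCs). Each kind was left untreated or given lipopolysaccharide (LPS), a bacterial outer membrane component, at 100 ng/ml for 4 h. All but the eosinophils were also given interleukin-10 (IL-10), an anti-inflammatory cytokine, at 100 ng/ml, either alone or for 4 h before the LPS. This made 18 groups of 2 libraries each. Groups with LPS were harvested 4 h later than groups without it, so LPS and the longer culture cannot be told apart. The time since IL-10 was added was likewise 4 h longer with both agents than with IL-10 alone. Changes with IL-10 in cells with and without LPS therefore differ in this time as well.

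All values are the authors' means over the 2 libraries of a group, as normalized tag counts added up over the transcripts of a gene. The means carry no spread between libraries, so no test was possible and no error can be given. The depth behind them is unknown. A gene was compared where it reached 10 in either group, and it was called raised or lowered where it differed by 2-fold or more on the log2(mean + 1) scale. The share of all genes called in the same way is printed beside the count of each comparison, and counts of functional groups are to be read against it. In these bulk samples, fewer cells of a type and less RNA per cell cannot be told apart.

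Transporters set what a myeloid cell can take in, keep in its lysosomes and granules, and give away. Macrophages of the spleen and liver recycle iron through the exporter Slc40a1, phagosomes are depleted of metals by Slc11a1, and cells that burn glucose by glycolysis release lactate through the monocarboxylate carriers Slc16a1 and Slc16a3. Mast cells fill their granules with histamine and serotonin through the vesicular monoamine transporter Slc18a2.

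The labelled cell types were checked against those of their listed markers that were in the table. These were 4 of 7 for macrophages, 6 of 12 for neutrophils, 3 of 10 for mast cells and 2 of 10 for eosinophils. The mast cell proteases and receptor Tpsb2, Tpsab1 and Kit summed to between 277675 and 325478 in mast cells and to between 3925 and 8800 in sDCs, where all of the signal was Kit. Neutrophils had mast cell sums of 1885 to 3906.5, almost all from Kit. The eosinophil genes Epx and Ccr3 summed to at least 221356 in eosinophils and to between 19648 and 23628 in neutrophils. The neutrophil groups also held red cell and B cell transcripts, with erythroid sums of 5776 to 10237.5 and B cell sums of 3122 to 4744. The sDC groups held them too, at 1860 to 2725 and 1504 to 1778.5, and had the T cell gene Cd4 at 876 to 2306.5. For dendritic cells, 3 of 10 listed markers were in the table. Xcr1 and Clec9a were higher in untreated sDCs, at 189.5 and 243.5, than in untreated macrophages, at 31 and 34, whereas Itgax was at 4075.5 in the sDCs and 13861 in the macrophages and made up most of the sum of the 3. These sDCs also held Mpo, a gene of neutrophil precursors, at 4890 untreated and 714 with LPS. With LPS, neutrophils had more of Emr1, a gene of the macrophage list, at 14667.5 against 4346. Of the other macrophage genes, Cd68 was at 3140 against 2788, Marco at 241 against 0 and Timd4 at 0.5 against 0. They had less of the neutrophil genes Cxcr2, at 3210 against 52728, Mmp8, at 17265 against 122455, and Mmp9, at 12701.5 against 77310.5. Ly6g, Mpo and Elane stayed within 2-fold there. Emr1 was not particular to macrophages, with 14338.5 in untreated and 22514.5 in LPS eosinophils against 21201 and 16808 in macrophages. Nor was Ly6g particular to neutrophils, at 188.5 in untreated eosinophils against 161.5 in untreated neutrophils. In sDCs Itgax was at 818.5 with LPS against 4075.5 untreated and Clec9a at 49.5 against 243.5, while Xcr1 was level, at 201.5 against 189.5. The part of such shifts in the SLC values was not tested.

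Slc16a1, Slc2a6 and Slc6a4 were the 3 SLC genes called in 1 direction in all or nearly all of the cell types given a treatment. Slc16a1 encodes MCT1, a carrier of lactate and pyruvate (NCBIM37 chr3:104442591-104462385, plus strand). Slc2a6 encodes GLUT6, a facilitative sugar transporter (chr2:26876883-26883518, minus strand). Slc6a4 encodes the serotonin transporter of the plasma membrane (chr11:76812105-76845842, plus strand). Their promoters are shown because these genes carry the patterns described next. The windows run from 250 bases before to 50 bases after the RefSeq start site, on GRCm38.p6, a later build than that of the gene positions just given, and read 5′ to 3′ on the strand of the gene. Capitals mark CG steps, the sites of DNA methylation.

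Slc16a1 promoter, chr3:104638414-104638713, plus strand: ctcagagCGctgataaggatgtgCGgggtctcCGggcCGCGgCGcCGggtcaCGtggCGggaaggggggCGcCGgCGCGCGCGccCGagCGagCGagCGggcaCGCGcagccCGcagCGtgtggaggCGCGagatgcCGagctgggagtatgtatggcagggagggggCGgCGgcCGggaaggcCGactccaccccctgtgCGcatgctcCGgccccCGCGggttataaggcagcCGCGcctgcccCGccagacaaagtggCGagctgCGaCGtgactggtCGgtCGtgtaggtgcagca
Slc2a6 promoter, chr2:27027949-27028248, minus strand: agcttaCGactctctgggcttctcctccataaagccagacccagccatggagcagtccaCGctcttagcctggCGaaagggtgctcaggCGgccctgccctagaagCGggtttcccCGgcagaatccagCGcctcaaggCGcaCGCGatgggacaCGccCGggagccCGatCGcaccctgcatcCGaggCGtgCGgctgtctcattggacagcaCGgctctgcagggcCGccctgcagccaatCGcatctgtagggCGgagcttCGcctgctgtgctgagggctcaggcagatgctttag
Slc6a4 promoter, chr11:76998347-76998646, plus strand: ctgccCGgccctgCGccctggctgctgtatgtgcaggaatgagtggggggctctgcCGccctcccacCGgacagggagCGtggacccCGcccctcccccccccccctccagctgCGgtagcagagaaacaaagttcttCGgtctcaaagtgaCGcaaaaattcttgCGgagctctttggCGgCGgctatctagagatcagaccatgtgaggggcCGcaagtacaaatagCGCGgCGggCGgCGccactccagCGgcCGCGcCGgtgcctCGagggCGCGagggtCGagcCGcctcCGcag

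The 3 windows held 42, 22 and 28 CG steps in Slc16a1, Slc2a6 and Slc6a4, in that order, against a median of 7 over the 32851 mouse promoter windows and of 18.5 over the 114 windows of the 88 SLC genes with a window. Their shares of G and C were 73.7%, 64.7% and 67.7%, against medians of 52.7% and 62.2%. None of the 3 held, on either strand, the STAT letters TTCNNNGAA, which were in 8.3% of all windows and 2.63% of SLC windows, the NF-kB letters GGGNNTTCC (5.82% and 1.75%) or the IRF letters GAAANNGAA (8.56% and 4.39%). Another, loosely defined NF-kB form, GGG and CC with 5 bases between them, differs in spacing from GGGNNTTCC and was searched first. It had 1, 5 and 3 matches, some overlapping, and was in 50.8% of all windows and 66.7% of SLC windows. The lack of GGGNNTTCC therefore does not mean that a window held no NF-kB form. These matches are descriptions of letters, not of bound sites.

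**Figure D1:**
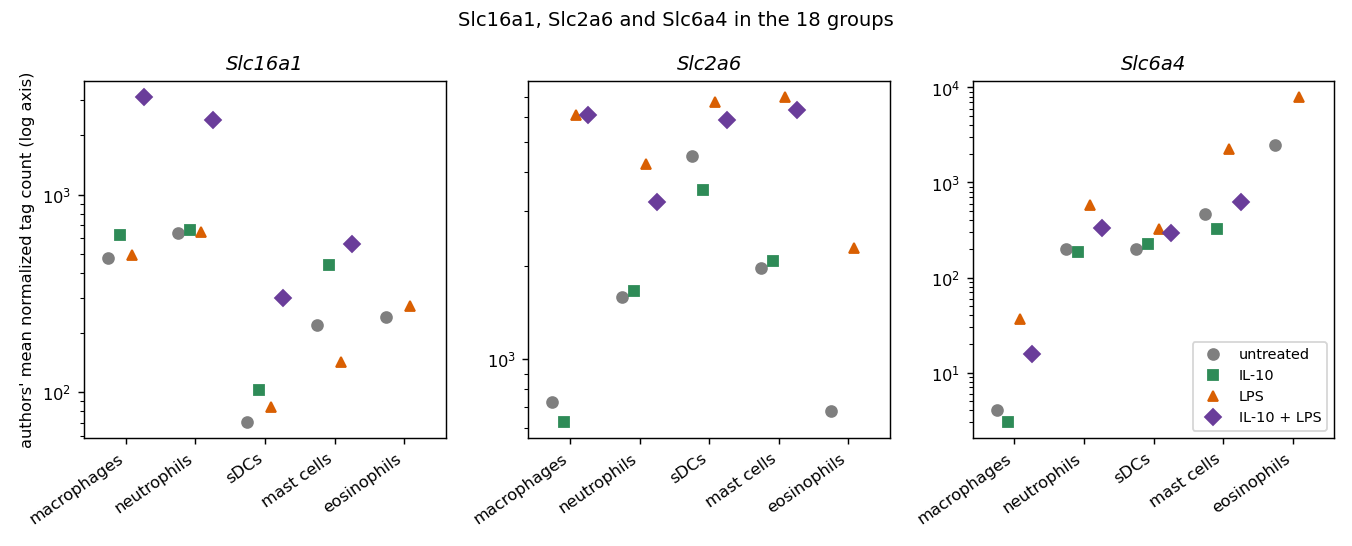
Authors' mean normalized tag counts (log axis) of Slc16a1, Slc2a6 and Slc6a4 in the 18 groups, 1 point per group, by cell type and treatment; each panel has its own axis. Slc16a1 was highest with IL-10 and LPS together in each of the 4 cell types given IL-10, and Slc2a6 and Slc6a4 were above the untreated value with LPS in all 5.

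Slc16a1 stood at 479.5 in untreated macrophages, 626 with IL-10, 497 with LPS and 3104.5 with both. Neutrophils held 636.5, 663.5, 643 and 2382 in the same order. The sDCs were lower throughout, at 70.5, 102.5, 84 and 300. Only the group given both agents stood apart in these 3 cell types. Mast cells had 218 untreated, 441.5 with IL-10, 143 with LPS and 565 with both, so that both IL-10 groups lay above both groups without it. Eosinophils, which were not given IL-10, had 241 untreated and 272 with LPS. With IL-10 and LPS against LPS, the log2 change of Slc16a1 was largest in macrophages, at 2.64, and was 1.97 in mast cells, 1.89 in neutrophils and 1.82 in sDCs. It was the only 1 of the 111 SLC genes raised in all 4 cell types, and 11 of all 6509 genes were. With IL-10 alone it was called in mast cells, with a log2 change of 1.01 that came to 0.99 with a pseudocount of 10.

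Genes that work beside the lactate carriers were read from a list of glycolysis genes and chaperones, of which 6 of 11 were in the table. Pfkfb3, which makes the activator of phosphofructokinase, was raised by both agents over LPS alone in macrophages, from 2947.5 to 19353, and in neutrophils, from 2861 to 17738.5. It stood at 32274.5 and 40271 in sDCs and at 1490.5 and 2146 in mast cells, short of 2-fold. Ldha, lactate dehydrogenase A, went from 8998.5 to 12703 in macrophages, and Bsg, the chaperone that brings monocarboxylate carriers to the cell surface, from 3821.5 to 3824.5. Neither passed 2-fold in any comparison.

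The related lactate exporter Slc16a3 moved otherwise. In sDCs it was lowered with LPS, from 1470.5 to 306.5, and raised with IL-10 and LPS against LPS, to 625.5. The log2 change with LPS was -2.26, whereas the one with IL-10 on top was 1.03 and came to 0.98 after centring on the median of all genes. Mast cells had 4126 untreated, 3984 with IL-10, 1673.5 with LPS and 1876 with both, so the 2 LPS groups were the low ones. Macrophages held 949 and 940 without and with LPS, neutrophils 3569 and 3684.5, and eosinophils 3936.5 and 4661, all within 2-fold. Exons of Slc16a3 overlap those of Csnk1d on the opposite strand, and the sources used here do not say whether reads were counted by strand.

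Before any treatment, the SLC genes spanned a wider range between cell types than the genes of the table did as a whole. The median ratio between the highest and the lowest of the 5 untreated groups was 2.81 on the log2 scale for the SLC genes and 2.03 for all genes. Of the variance of log2(mean + 1) over the groups, 91.5% lay between cell types for SLC genes, 6.08% between groups with and without LPS within a cell type, and 2.38% between groups with and without IL-10. Over all genes these shares were 88.7%, 8.39% and 2.93%. Cell type, preparation and library kit differ together here and cannot be told apart.

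In untreated cells, 79 SLC genes reached 10 in all 5 cell types, and 15 of these stayed within 2-fold. The 15 included Slc7a6os, which is no transporter, and the mitochondrial phosphate carrier Slc25a3, at 9218 in macrophages, 7957.5 in eosinophils, 7921.5 in sDCs, 7840.5 in neutrophils and 6905 in mast cells. The peroxisomal carrier Slc25a17 lay between 452.5 and 598, the zinc transporter of the Golgi Slc30a7 between 1034 and 1562.5, and the glutamine transporter Slc38a1 between 2412.5 and 3318.5. At the other end, 10 SLC genes reached 10 in only 1 untreated cell type.

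Of the SLC genes, 16 were at 50 or more in 1 untreated cell type and at least 4-fold above the next on the mean + 1 scale. Mast cells had 5 of them, sDCs 4, macrophages and eosinophils 3 each, and neutrophils 1. As a share of the genes at 50 or more, this was 6.17% of SLC genes against 4.12% of all genes in mast cells, 4.71% against 5.66% in sDCs, 3.85% against 4.89% in macrophages, 3.75% against 1.12% in eosinophils and 1.23% against 1.62% in neutrophils.

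**Figure D2:**
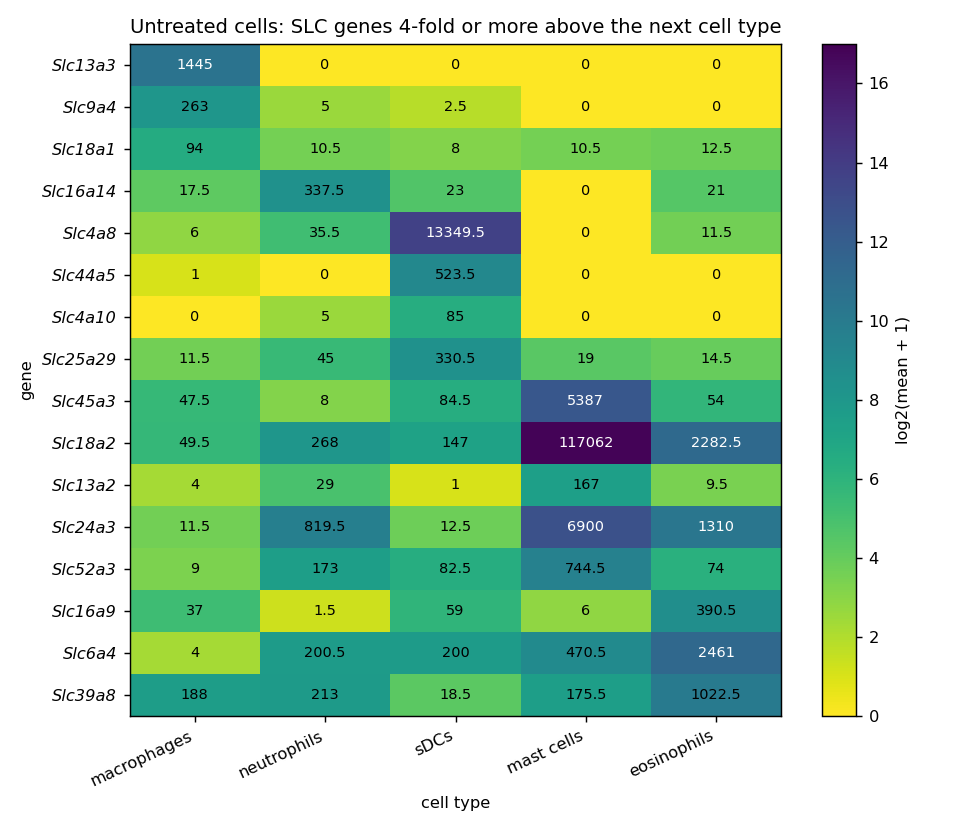
Untreated values of the 16 SLC genes that stood 4-fold or more above the next cell type; rows are genes, columns the 5 untreated groups, the printed numbers are authors' means and the colour is log2(mean + 1). Slc13a3 was listed at 0 outside macrophages, and Slc18a2 reached 117062 in mast cells.

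Macrophages were marked by Slc13a3, a sodium-coupled carrier of dicarboxylates such as succinate (chr2:165230528-165298730, minus strand). It stood at 1445 in untreated macrophages and was listed at 0 in the other 4 untreated cell types. With IL-10 it was at 1566.5, with LPS at 1072 and with both at 1311, all within 2-fold. Slc9a4, a sodium-proton exchanger, was at 263 against 5 in neutrophils, the next highest. Slc18a1, the other vesicular monoamine transporter, was at 94 against 12.5 in eosinophils.

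The sDCs were marked by Slc4a8, a sodium-driven exchanger of chloride and bicarbonate (chr15:100592178-100654399, plus strand). Its 4 sDC values were 13349.5 untreated, 10213.5 with IL-10, 10213 with LPS and 8449.5 with both, while no group of another cell type passed 43.5. Slc44a5, of the choline transporter-like family, had 523.5, 608, 289.5 and 372.5 in the same 4 groups and at most 1.5 in any other. Slc25a29, a mitochondrial carrier of basic amino acids, was at 330.5 against 45 in neutrophils, and Slc4a10 was at 85 against 5.

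Mast cells had the longest list. Slc18a2 (chr19:59335368-59370502, plus strand) stood at 117062 untreated, 49839.5 with IL-10, 54858 with LPS and 54465 with both. Eosinophils had 2282.5 and 2912 of it, and every other group 370 or less. Slc45a3, a member of a sugar transporter family, was at 5387 untreated and at up to 8862.5 with both agents, against at most 98 outside mast cells. Slc24a3, a potassium-dependent exchanger of sodium and calcium, was at 6900 against 1310 in eosinophils. The riboflavin transporter Slc52a3 was at 744.5 against 173 in neutrophils, and the dicarboxylate carrier Slc13a2 at 167 against 29.

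Eosinophils led for Slc6a4, Slc39a8 and Slc16a9. Slc6a4 was at 2461 against 470.5 in mast cells. Slc39a8, the zinc and manganese importer ZIP8, was at 1022.5 against 213 in neutrophils, and at 1012 with LPS. Slc16a9, of the monocarboxylate carrier family, was at 390.5 against 59 in sDCs. Neutrophils had 1 gene, Slc16a14, an orphan of the same family, at 337.5 against 23 in sDCs.

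LPS was followed by calls on SLC genes in every cell type, and most often in macrophages. The first replicate of the untreated macrophages came from earlier published libraries, so LPS and library origin cannot be fully told apart in macrophages. There, 20 of the 100 SLC genes compared were raised and 21 lowered, where 12.6% of all genes were raised and 14.7% lowered. With a minimum of 50 in place of 10, 10 were raised and 16 lowered. The share of all genes at that minimum is not given here, so these 2 counts cannot be set against 12.6% and 14.7%. In neutrophils 12 of 101 were raised and 8 lowered (all genes 8.71% and 7.82%). In sDCs 12 of 102 were raised and 16 lowered (8.98% and 11.4%). Mast cells had 6 of 94 raised and 5 lowered (4.71% and 5.41%), and eosinophils 4 of 97 raised and 1 lowered (2.16% and 0.702%). As shares of the SLC genes these were 20% and 21%, 11.9% and 7.92%, 11.8% and 15.7%, 6.38% and 5.32%, and 4.12% and 1.03%. Over the 5 cell types, 47 SLC genes were called nowhere. The median SLC gene differed by -0.26 in mast cells (all genes -0.08), -0.24 in macrophages (-0.15), -0.15 in sDCs (-0.14), -0.04 in neutrophils (-0.03) and -0.01 in eosinophils (-0.02), on the log2 scale.

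**Figure D3:**
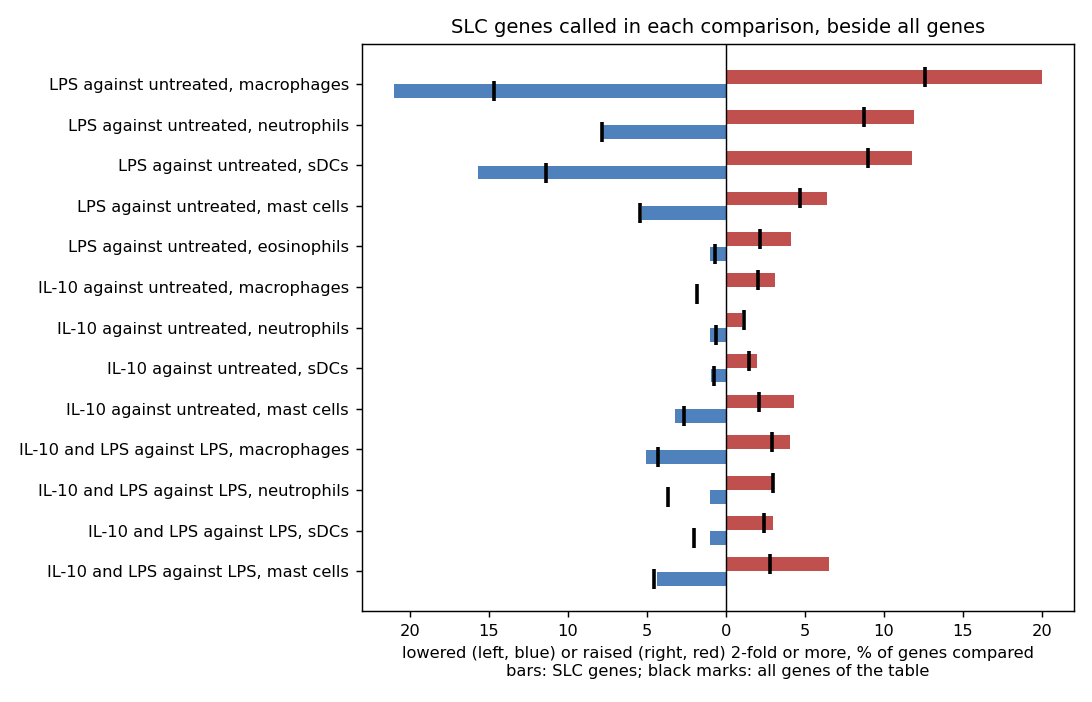
Share of SLC genes raised (right, red bars) or lowered (left, blue bars) by 2-fold or more in each of the 13 comparisons, as a percentage of the SLC genes compared; black marks give the share of all genes. The longest bars are those of LPS in macrophages, at 20% raised and 21% lowered. There, the first untreated replicate came from earlier published libraries.

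None of the 111 SLC genes was called in the same direction by LPS in all 5 cell types. Of all 6509 genes, 38 were raised in all 5 and 3 lowered, too small a share to set the SLC genes apart. Slc2a6 and Slc6a4 were raised in 4 of 5 (all genes 69), and Slc25a47, Slc39a4 and Slc7a3 in 3 (145). Slc16a14, Slc27a1 and Slc46a1 were lowered in 3 (all genes 144).

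Slc2a6 went from 730 to 6101 in macrophages, from 1592 to 4232 in neutrophils, from 1962 to 6960.5 in mast cells and from 682 to 2277 in eosinophils. The log2 changes were 3.06, 1.41, 1.83 and 1.74. The sDCs started highest, at 4500, and stood at 6744.5 with LPS, a log2 change of 0.58. IL-10 with LPS left Slc2a6 within 2-fold of LPS alone, at 6325.5 in mast cells, 6113 in macrophages, 5876.5 in sDCs and 3212.5 in neutrophils.

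The other glucose transporters differed from it. Slc2a3, the high-affinity transporter GLUT3, was lowered with LPS in neutrophils, from 5656.5 to 1834, and in macrophages, from 42 to 9. It stood at 6191 and 6530 in mast cells and at 11501.5 and 9732.5 in eosinophils. Slc2a1, the widely expressed GLUT1, was lowered in mast cells, from 9284.5 to 4347, and was within 2-fold in the other 4. Slc2a9, which carries urate, was lowered in neutrophils, from 179 to 70.5. Slc5a3, which takes up the osmolyte myo-inositol, was raised in sDCs, from 334 to 1720, and had 1021 with both agents. Its exon overlaps those of Mrps6 on the same strand, so reads of these genes may be split between them.

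Slc6a4 with LPS went from 2461 to 7881.5 in eosinophils, where it was already highest, and from 470.5 to 2228.5 in mast cells. Neutrophils had 200.5 and 584.5, and macrophages 4 and 36.5. The sDC values of 200 and 323 were within 2-fold. Neutrophil groups also held the eosinophil gene Epx, at 19128.5 untreated and 18734 with LPS, and its part in the neutrophil values was not tested. IL-10 given before LPS was followed by lower values, of 620.5 in mast cells and 15.5 in macrophages, which were called, and of 332.5 in neutrophils and 296.5 in sDCs, which were not. The macrophage call was lost with a pseudocount of 10, at a log2 change of -0.87, and both its values were under 50. In mast cells this was a log2 change of -1.84, and the mast cell value with IL-10 alone was 324.5.

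**Figure D4:**
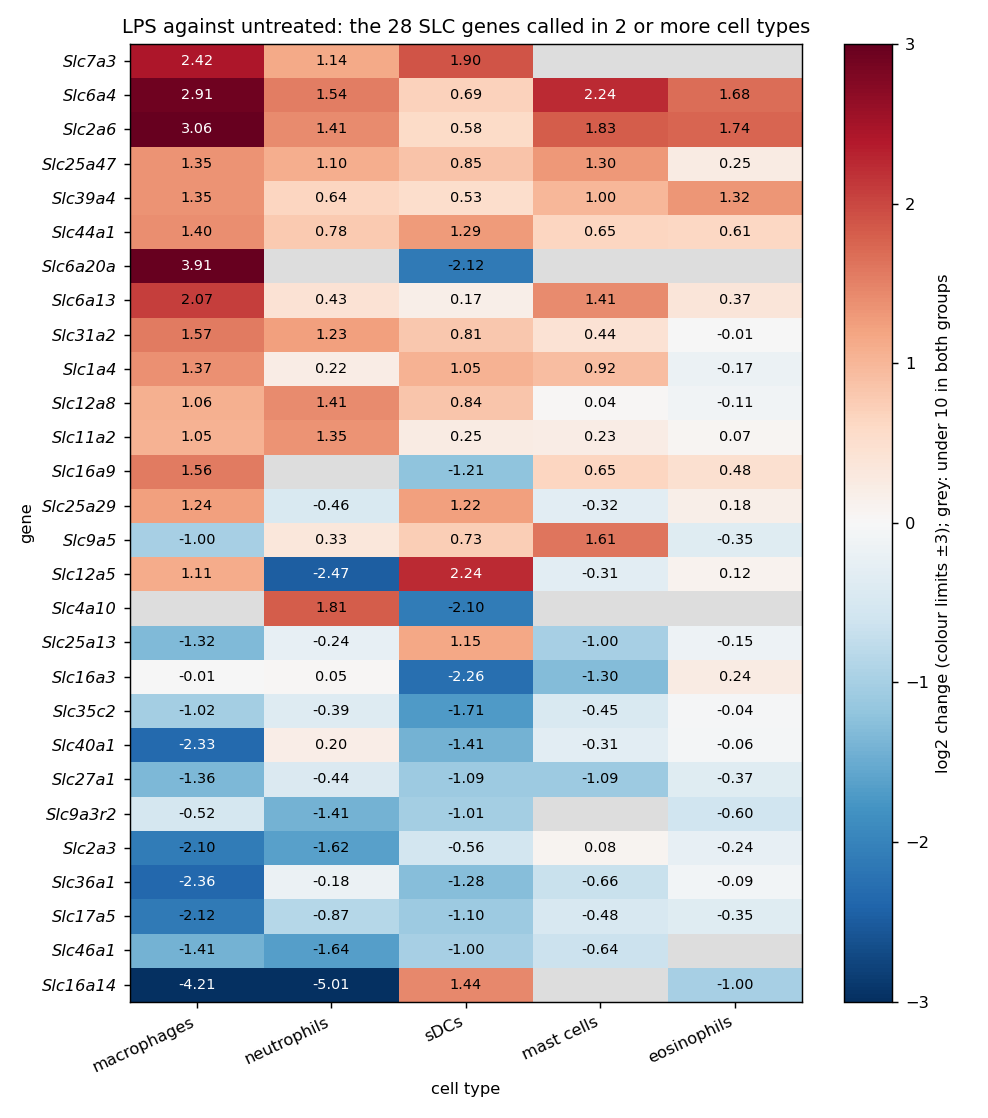
Log2 changes with LPS against untreated of the 28 SLC genes called in 2 or more cell types; rows are genes, columns cell types, colour limits are ±3 and grey cells were under 10 in both groups. Slc6a4 and Slc2a6 were called as raised in every cell type but sDCs, and Slc16a14 changed by -5.01 in neutrophils and by 1.44 in sDCs.

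Of the 19 amino acid and peptide genes, 18 were compared in macrophages, where 7 were raised and 2 lowered with LPS (all genes 12.6% and 14.7%). Of 16 compared, 3 were raised and none lowered in neutrophils (8.71% and 7.82%), and 3 raised and 3 lowered in sDCs (8.98% and 11.4%). Of 14 compared, 2 were raised in mast cells (4.71%) and 1 in eosinophils (2.16%). The group was set by family number and so holds the serotonin transporter Slc6a4. That was the gene raised in eosinophils, and it was among those raised in macrophages, neutrophils and mast cells. The cationic amino acid transporter Slc7a3 was low everywhere and went from 7.5 to 44.5 in macrophages, from 18.5 to 42 in neutrophils and from 24.5 to 94 in sDCs. Slc1a4, a carrier of neutral amino acids such as serine, went from 66 to 172.5 in macrophages and from 124 to 257.5 in sDCs. Slc6a13, a carrier of GABA and taurine, went from 810 to 2150 in mast cells, and in macrophages from 6.5 to 30.5. Slc32a1, which loads GABA and glycine into vesicles, was at 14 and 78 in neutrophils and at 5.5 or less in every other cell type. Of 6 genes of arginine and cystine use in the table, Nos2, which makes nitric oxide from arginine, was raised with LPS in all cell types but eosinophils, from 19 to 6709 in macrophages, and Arg1, which splits arginine, was lowered there, from 3358.5 to 944.5. In macrophages Ass1 was raised as well and Gclc lowered.

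Slc36a1, which lets small amino acids out of lysosomes with protons, fell from 3326 to 647 in macrophages and from 650.5 to 267 in sDCs. Its relative Slc36a4 fell from 384 to 154 in sDCs and was at 2200.5 and 1114 in macrophages, just short of 2-fold. Slc17a5, the lysosomal exporter of sialic acid, fell from 1046.5 to 240 in macrophages and from 383 to 178 in sDCs. The mast cell values of Slc36a1 were 2383 and 1508.5 and those of neutrophils 1360.5 and 1203.5, within 2-fold.

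Of the 14 metal transporter genes, all were compared in macrophages and 13 in each other cell type. With LPS, 3 were raised and 3 lowered in macrophages (all genes 12.6% and 14.7%), 2 raised in neutrophils (8.71%), 1 raised and 2 lowered in sDCs (8.98% and 11.4%), 1 raised in mast cells (4.71%) and 2 raised in eosinophils (2.16%). Slc11a2, the iron importer DMT1, was raised in macrophages, from 2289 to 4736, and in neutrophils, from 358 to 914. Its exons overlap Gm5475 on the opposite strand. Slc31a2, a copper transporter of late endosomes, was raised in the same 2 cell types, from 1839.5 to 5458 and from 1439 to 3378.5. Slc39a4, the zinc importer ZIP4, was raised in macrophages (119 to 304.5), eosinophils (219.5 to 549) and mast cells (798 to 1599.5), the last with a log2 change of 1.00 that came to 0.99 with a pseudocount of 10.

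Slc40a1, ferroportin (chr1:45964915-45982439, minus strand), was lowered with LPS in macrophages, from 204.5 to 40, and in sDCs, from 2637 to 991.5. Neutrophils held more than any other cell type, at 6263 untreated, 5122 with IL-10, 7171.5 with LPS and 5235 with both. The neutrophil groups also held the red cell gene Hbb-b1, at 4485.5 untreated and 2346.5 with LPS. Erythroid cells can contain Slc40a1 as well, and the part of such cells in this value was not tested. Slc11a1 (chr1:74421777-74432636, plus strand) was level in macrophages, at 20795 untreated and 19618.5 with LPS, and was called only in eosinophils, from 110 to 486.5. In sDCs it went from 2404.5 to 1235.5 with LPS and stood at 2256.5 with both agents, within 2-fold each time.

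Other genes of iron and zinc handling were read from short lists. Of 6 iron and haem genes in the table, 3 were lowered with LPS in macrophages (all genes 14.7%). These were the transferrin receptor Tfrc from 5128.5 to 1850, the ferrireductase Steap3 from 2447.5 to 462.5, and Aco1 from 2559 to 1160.5. Hmox1, haem oxygenase, was raised in neutrophils, from 2258 to 77414, in mast cells, from 1218 to 2958.5, and in eosinophils, from 1221 to 2673.5. Of 5 zinc and copper genes, the metallothioneins Mt1 and Mt2, which bind zinc and copper in the cytosol, were raised by IL-10 with LPS against LPS in all 4 cell types (all genes 2.4% to 2.96%). In macrophages Mt1 went from 3037.5 to 8413 and Mt2 from 1985 to 9187. None of the 14 metal transporters was raised in more than 1 cell type in that comparison. Of all 6509 genes, 60 were raised in 2 cell types, 25 in 3 and 11 in 4, so none among 14 is no trait of metal transporters.

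Of the 17 ion, bicarbonate, proton and phosphate genes, 14 were compared in macrophages, where 4 were raised and 4 lowered with LPS (all genes 12.6% and 14.7%). Of the raised genes, Slc12a5 (5.5 to 13) and Slc4a8 (6 to 14) were compared only through their LPS value. Of 15 compared, 2 were raised and 2 lowered in neutrophils (8.71% and 7.82%), and 1 raised and 3 lowered in sDCs (8.98% and 11.4%), and 1 of the lowered genes in each was Slc9a3r2, which is no transporter. In mast cells 1 of 12 was raised (4.71%), and in eosinophils none of 14 was called. Slc12a4, a potassium-chloride cotransporter, was raised in macrophages from 1697.5 to 3993.5. The mitochondrial sodium-calcium exchanger Slc24a6 was lowered there, from 2208.5 to 824.5. Slc12a8 was raised in neutrophils, from 45 to 121, and in macrophages, from 46 to 97.

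Of the 16 genes of the Slc25 family, which are mitochondrial carriers apart from the peroxisomal Slc25a17, 2 were raised and 2 lowered with LPS in macrophages (all genes 12.6% and 14.7%), with a median log2 change of -0.49 against -0.15 for all genes. Neutrophils had 1 raised (8.71%), sDCs 2 raised and 1 lowered (8.98% and 11.4%), mast cells 1 raised and 1 lowered (4.71% and 5.41%), and eosinophils none. None was called in any comparison with IL-10. Slc25a13, the aspartate-glutamate carrier citrin, was lowered in macrophages, from 859 to 342.5, and raised in sDCs, from 176.5 to 392.5. Slc25a29 was raised in sDCs, from 330.5 to 772. Slc25a47 was raised in macrophages, neutrophils and mast cells, though with no value above 41 in these groups.

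Among 11 nucleoside and nucleotide sugar genes, Slc35c2 was lowered by LPS in sDCs, from 1223.5 to 374.5, and in macrophages, from 1080.5 to 532. The GDP-fucose transporter of the Golgi, Slc35c1, was lowered in sDCs, from 602 to 290.5. Slc28a3, which concentrates nucleosides in the cell, was raised in neutrophils, from 13.5 to 69.5, and was at 7.5 or less in every group of the other cell types. Of 5 vitamin and haem genes, none was raised with LPS (all genes 2.16% to 12.6% over the 5 cell types). The folate importer Slc46a1 was lowered in macrophages, from 238 to 89, in neutrophils, from 24 to 7, and in sDCs, from 14 to 6.5. The haem transporter of lysosomes, Slc48a1, stayed within 2-fold throughout.

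A group of 3 carnitine and organic cation transporters lies side by side on the minus strand of chromosome 11 of NCBIM37, at chr11:53678044-53705162 (Slc22a5), chr11:53763467-53793834 (Slc22a21) and chr11:53796625-53841592 (Slc22a4). With LPS in sDCs, Slc22a21 went from 134 to 985.5 and Slc22a5, the main carnitine importer, from 530.5 to 1217.5. Slc22a4 was at 244.5 and 352, within 2-fold, and in macrophages it was lowered from 832 to 337. Slc22a21 was at 43.5 or less in every group outside sDCs. The choline transporter-like gene Slc44a1 was raised in sDCs, from 4168 to 10163, and in macrophages, from 2391.5 to 6333. Slc27a1, which takes up long-chain fatty acids, was lowered in macrophages, from 4441 to 1732, in mast cells, from 2561 to 1204, and in sDCs, from 644 to 302.

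IL-10 alone was followed by few calls. In macrophages 3 of 97 SLC genes were raised and none lowered (all genes 2.02% and 1.8%). In neutrophils 1 of 101 was raised and 1 lowered (1.12% and 0.618%), and in sDCs 2 of 103 were raised and 1 lowered (1.46% and 0.723%). All these genes were low, and with a minimum of 50 or a pseudocount of 10 the counts in these 3 cell types were 0. Mast cells had 4 of 93 raised and 3 lowered (2.12% and 2.67%). No SLC gene was called by IL-10 alone in the same direction in more than 1 cell type, and 97 of the 111 were called in none. Such shared calls were rare among all 6509 genes too. There, 39 genes were raised in 2 cell types, 14 in 3 and 1 in 4, and 20 were lowered in 2 and 1 in 3.

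With IL-10 and LPS against LPS, 4 of 99 SLC genes were raised and 5 lowered in macrophages (all genes 2.89% and 4.28%), 3 of 99 raised and 1 lowered in neutrophils (2.96% and 3.69%), 3 of 101 raised and 1 lowered in sDCs (2.4% and 2%), and 6 of 92 raised and 4 lowered in mast cells (2.78% and 4.55%). Apart from Slc16a1, no SLC gene was raised in more than 1 cell type, and only Slc6a4 was lowered in more than 1, where its macrophage call was lost with a pseudocount of 10. Of all 6509 genes, 60 were raised in 2 cell types, 25 in 3 and 11 in 4, and 111 were lowered in 2, 28 in 3 and 7 in 4. The SLC counts are too small to be set apart from these. The 9 calls in macrophages became 2 with a minimum of 50, 5 with a pseudocount of 10 and 14 with no minimum.

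**Figure D5:**
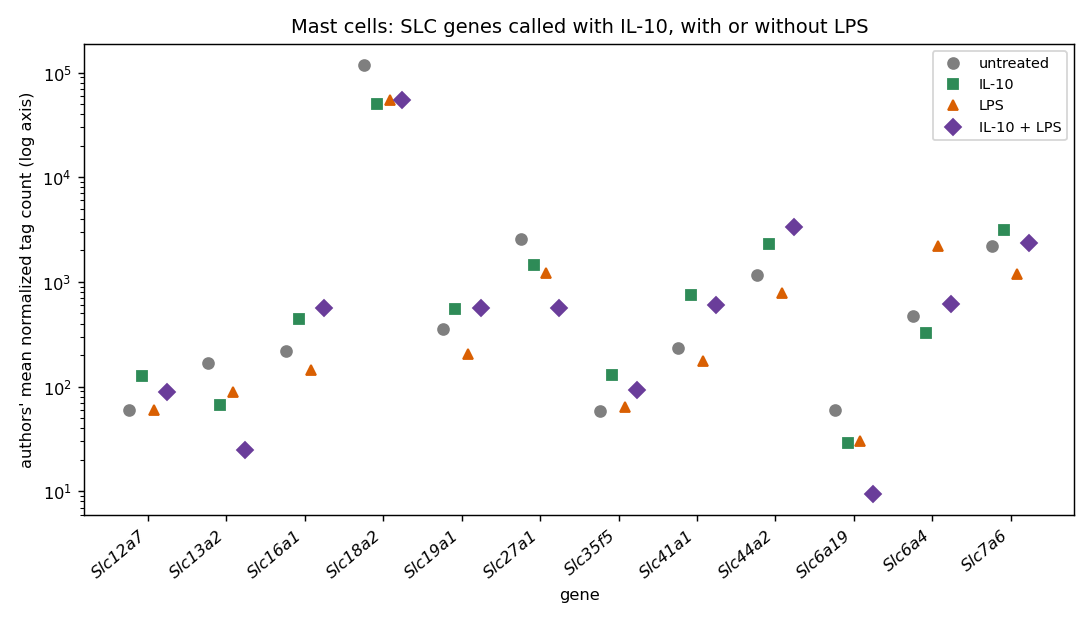
Authors' mean normalized tag counts (log axis) in mast cells of the 12 SLC genes called with IL-10, alone or with LPS, that reached 50 in a mast cell group; each gene has 1 point for each of the 4 treatments. For Slc12a7, Slc16a1, Slc19a1, Slc35f5, Slc41a1, Slc44a2 and Slc7a6 both IL-10 groups lie above both groups without IL-10.

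Mast cells had the highest counts of SLC genes called with IL-10, 7 without LPS and 10 with it. Slc41a1, a magnesium transporter (chr1:133724070-133745442, plus strand), stood at 235.5 untreated, 748 with IL-10, 177.5 with LPS and 605.5 with both. Its log2 changes with IL-10 were 1.66 without LPS and 1.76 with it. Slc44a2, of the choline transporter-like family (chr9:21142288-21159469, plus strand), stood at 1154, 2280, 783.5 and 3315.5 in the same order. It was called with LPS, at 2.08, and was just short of 2-fold without it. Slc19a1, the reduced folate carrier, had 353.5, 551, 206.5 and 559.5, and Slc7a6, an exchanger of cationic and neutral amino acids, 2227, 3107.5, 1185 and 2377.5. Both were called with LPS only, and the change of Slc7a6, 1.00, lay on the threshold.

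Among the mast cell genes lowered with IL-10 alone was Slc18a2. Its value of 117062 in the untreated group stood apart from 49839.5, 54858 and 54465 in the 3 treated groups, a log2 change of -1.23 with IL-10 alone and of -1.09 with LPS alone. The highest transcript value was 185338 in each of the 18 groups, and the leading transcript of Slc18a2 had exactly 52655 in both LPS groups, so the top of the scale was shared between groups and holds few distinct values. Slc13a2 had 167, 67, 88.5 and 25 in the order untreated, IL-10, LPS and both, and was called in both comparisons. Slc27a1 was lowered with both agents against LPS, from 1204 to 561.

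In neutrophils, the genes raised with IL-10 and LPS against LPS were Slc28a3, Slc16a1 and Slc44a1. Slc28a3 (chr13:58646760-58712238, minus strand) was at 13.5 untreated, 30 with IL-10, 69.5 with LPS and 331 with both, with log2 changes of 2.28 for LPS and 2.24 for IL-10 on top of LPS. Slc44a1 was at 273, 236.5, 469 and 1313 in the same order, so that only the group with both agents stood apart. In macrophages, where Slc44a1 was at 6333 with LPS, the group with both agents had 5482.5.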

How the data were processed

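RNA-seq had been made from 5 mouse myeloid cell types. The authors aligned reads with Bowtie 0.12.9, estimated tag counts per Ensembl 67 transcript with RSEM 1.2.1 and then corrected for GC content in EDASeq 1.8.0. The deposited values are scores of that kind, averaged over the 2 replicates of a group. The authors took replicates from independent mice, and the first replicate of the untreated and IL-10 macrophages came from earlier published libraries. The copy analysed held 17015 complete lines, of which 22 had no gene name, so that 16993 transcripts from 6509 genes remained, which do not cover the transcriptome. Of 37 samples, 36 libraries stand behind the 18 columns, and 1 sample with no column was not analysed here. Normalized means keep no depth, so precision and intervals cannot be given. GC correction and averaging can move the values of single genes.

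Transcripts were summed per gene with Python 3.11.15, numpy 2.4.6 and pandas 2.3.3, and 2 family members are not reported here. A gene was compared where either group reached 10, on log2(value + 1), and called at 2-fold. The calling rule was run on untreated macrophage values multiplied by known factors, with no noise added. That checks the arithmetic of the rule and says nothing of how reliable the calls on these means are. Alternatives were a pseudocount of 10, a minimum of 50, no minimum, the transcript with the highest mean, and centring on the median of all genes. Named genes were the 5 with the largest rise and the 3 with the largest fall in each comparison among called genes at 50 or more in the higher group, up to 4 identity genes per cell type, genes called alike in most cell types, and SLC genes with known myeloid roles. A gene named beyond these was chosen after its values were seen, as an example of its functional group. Members, functional groups and lists were chosen with earlier results of these data known. Gene positions are from GENCODE M1 on NCBIM37, the build of the deposited values, for 109 of 111 genes; exons of 21 overlap another gene. Promoter windows came from RefSeq on GRCm38.p6, and 88 of 111 genes had one. No coordinates were converted.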

Additional observations from a re-analysis of the deposited data

Results flagged for a closer look

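For 7 of the 111 SLC genes, LPS was followed by a call in opposite directions in different cell types. The share of all genes with such calls was not counted, so 7 cannot be read as many or few. For 5 of them the higher group was at 50 or more in both comparisons. These differences rest on 1 mean per group and were not tested. Slc16a14 was at 337.5 untreated and 9.5 with LPS in neutrophils and at 23 and 64 in sDCs, and the log2 changes differed by 6.45. Slc12a5, a potassium-chloride cotransporter known from neurons, was at 87.5 and 15 in neutrophils and at 14 and 70 in sDCs, a difference of 4.71. Slc16a9 was at 37 and 111 in macrophages and at 59 and 25 in sDCs, a difference of 2.77. Slc9a5, a sodium-proton exchanger, was at 52 and 160.5 in mast cells and at 67 and 33 in macrophages, a difference of 2.61, where the fall in macrophages lay exactly on the threshold. Slc25a13 was at 859 and 342.5 in macrophages and at 176.5 and 392.5 in sDCs, a difference of 2.47. Of the other 2, Slc4a10 was at 85 and 19 in sDCs and at 5 and 20 in neutrophils, and Slc6a20a at 49 and 10.5 in sDCs and at 0 and 14 in macrophages.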

How the results depend on the processing

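The table holds 1 mean per group, so leaving out a replicate could not be run. No paired analysis was possible because the columns carry no replicates. Centring on the median of all genes left all 13 counts within 1.5 times. That median was -0.15 with LPS in macrophages and -0.14 in sDCs. The other settings moved counts most where few genes were called. For LPS in macrophages, 41 SLC genes were called, and 26 with a minimum of 50. For IL-10 alone in macrophages, the count of 3 became 0 with a pseudocount of 10, 0 with a minimum of 50, 7 with no minimum and 5 with the transcript of the highest mean. In neutrophils the count of 2 became 0, 0 and 4 under the first 3 of these. In sDCs the count of 3 became 0 with a pseudocount of 10 and with a minimum of 50, and 6 with the transcript of the highest mean. In mast cells the count of 7 became 4 with a pseudocount of 10 and 13 with no minimum. For IL-10 and LPS against LPS, the 9 in macrophages became 5 with a pseudocount of 10, 2 with a minimum of 50 and 14 with no minimum, and the 4 in neutrophils became 7 with no minimum and 7 with the transcript of the highest mean. The cause of these moves was not tested beyond the number of genes each setting compares. Of the 60 changes of named genes, 7 fell short of 2-fold with a pseudocount of 10 and 2 after centring, and none changed direction. Without replicate values, no call here can be set against the spread between libraries.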
